A study of Mus musculus with 31 samples.

Results

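The muscle genes described here were 10 genes named for skeletal muscle, Fgf6, Myod1, Myog, Myf5, Acta1, Actc1, Myl1, Des, Chrna1 and Tnnt1, out of 34832 gene names on the array. All probes that the files name for these genes, control spots left out, were taken, which gave 14 probes on 50 spots of the 55681 probes and 59305 spots in all. Fgf6 was selected on its measured intensity in Ftx-/- against WT female eyes, where it was among the strongest falls, so that difference between Ftx-/- and WT females is given as a description. The other 9 genes were chosen to be set beside it, with earlier results of these data known.

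The DNA microarray compared RNA from E13.5 mouse eyes that lacked the X-linked long noncoding RNA Ftx with eyes of WT embryos, in both sexes. There were 3 WT female eyes (numbered 1, 2 and 4), 3 WT male eyes, 3 Ftx-/Y male eyes and 11 Ftx-/- female eyes, all of normal appearance (type 1 in the study) and with the pigmented epithelial layer taken off. The mutants came from gene targeting in the C57BL/6N ES cell line EGR-G101 and were kept on a pure C57BL/6N background, and the deletion also abolished the microRNAs that an Ftx intron harbours. The arrays analysed here were 2 for each Ftx-/- eye, which were averaged, and 1 for each other eye; further arrays and a further WT female eye that the study's methods describe were not analysed here.

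Skeletal muscle cells are made when transcription factors of the MyoD family (Myf5, Myod1 and Myog) switch on, in order, a set of contractile and synaptic genes. The extraocular muscles, which move the eye, arise from head mesoderm and lie against the outside of the eyeball, so that a dissected eye can carry some of them. Fgf6 is a secreted fibroblast growth factor known for its expression in the myogenic lineage.

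The arrays shared 4 slides. Slide 1 carried the 6 WT eyes together with Ftx-/Y eye 1. Slide 2 carried the remaining Ftx-/Y eyes with the first 3 Ftx-/- eyes, slide 3 the next 4 (eyes 4 to 7) and slide 4 the last 4 (eyes 8 to 11). Genotype and slide therefore cannot be told apart in females, and in males only Ftx-/Y eye 1 shared a slide with WT eyes. The median intensity of an array was 34.21 to 74.99, and 48.2% to 70.4% of the probe spots were well above background. Ftx itself, by its brighter probe, had a mean intensity of 101 ± 44.9 in WT females, 106 ± 4.39 in WT males, 16.5 ± 2.94 in Ftx-/Y and 21.8 ± 11 in Ftx-/- eyes (SD, n = 3, 3, 3 and 11 eyes). It was not well above background on any Ftx-/Y array, but was so on 9 of the 22 Ftx-/- arrays. The labels do not tie eyes to embryos or litters, so the p-values measure the spread between these eyes.

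The label of extraocular muscle was not borne out by its defining genes in most eyes. Myod1 and Myf5 were well above background on 0 of the 31 arrays. Myog, which drives differentiation, was well above background only on both arrays of Ftx-/- eye 4 and on the array of Ftx-/Y eye 3. Among the other muscle genes, Ckm (muscle creatine kinase), Cav3, Myf6 and Klhl41 were among the 8 of 69 that were well above background on no array. Other muscle genes were detected, among them Myl4 and Tnnc2 on 22 of 22 Ftx-/- arrays and Myh3, the embryonic myosin heavy chain, on 19 and 21 of 22 by its 2 probes. The genes are therefore called the 10 muscle genes below. In RNA from a whole eye, fewer cells of a type and less RNA per cell cannot be told apart.

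Of the 10 genes, 6 could be tested (Fgf6, Acta1, Actc1, Myl1, Des and Tnnt1, with 8 of the 14 probes). A probe was tested when it was well above background on at least 50% of the arrays of at least 1 group, as 35119 probes were. Myod1, Myog, Myf5 and Chrna1 did not reach this.

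The sequences below show the start of the probes that the Fgf6 and Actc1 results rest on, with 30 of 60 bases each, in lower case. The brighter Fgf6 probe lies at chr6:126978138-126978197 (mm9, plus strand). The dimmer Fgf6 probe lies at chr6:126974677-126974736 (mm9, plus strand), 3401 bases away. The Actc1 probe lies at chr2:113873064-113873123 (mm9, minus strand). Exons and untranslated regions of this build were not used here. The longest run that the Actc1 probe shares with the Acta1 probe is 6 bases, and it is 6 bases between the Fgf6 probes as well.
Fgf6, brighter probe: ttaaaggtctttttatacgtttctctaaac
Fgf6, dimmer probe: tgagcagctatcttttatgtgccaggagga
Actc1 probe: ctctcatcagtcattgtacagtttgtttac

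Fgf6 was lower in Ftx-/- than in WT female eyes. By its brighter probe, the log2 intensity was 9.33, 9.40 and 8.63 in WT female eyes 1, 2 and 4, and 6.49, 7.2 and 7.80 (lowest, median and highest) in the 11 Ftx-/- eyes. All 11 Ftx-/- eyes lay below the lowest WT female eye, and the groups did not overlap. The mean fell by 1.89 on the log2 scale (SE 0.307), from 572 ± 152 to 155 ± 39.7 intensity units (SD, n = 3 and 11). Because this difference chose Fgf6, it is not tested here. In this comparison 27.8% of all 35119 probes passed an adjusted threshold of 0.05 (13.8% higher and 14% lower in Ftx-/- eyes, limma, Benjamini-Hochberg over all probes), while 0 of the other 5 genes did (0 at an unadjusted p under 0.05), and nothing is read from these counts.

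In males, which the choice did not use, Fgf6 was 8.93, 9.29 and 7.98 on the log2 scale in WT eyes 1 to 3 and 8.37, 7.18 and 6.78 in Ftx-/Y eyes 1 to 3. The groups overlapped, because Ftx-/Y eye 1 lay above WT eye 3. The difference was -1.29 (SE 0.385, 95% interval -2.09 to -0.49), with an unadjusted p of 0.00323 and an adjusted p of 0.173 (limma), so Fgf6 did not pass in males, where 0.0513% of all probes did. At the study's looser thresholds (unadjusted p under 0.05 and a fold change above 1.2 or below 0.8) it was the 1 gene of the 6 that passed, as did 11.4% of all probes. Without WT male eye 3 the difference was -1.66 and passed (adjusted p = 0.033, limma), and over all alternative settings the adjusted p lay between 0.033 and 0.941. No test of the change in females against that in males is given for Fgf6, because the female change chose the gene.

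Fgf6 followed the slide in every eye. The 7 eyes of slide 1 lay between 7.98 and 9.40 and the 13 eyes of the other slides between 6.49 and 7.80, and Ftx-/Y eye 1, the only mutant eye on slide 1, was at 8.37. Every eye of slide 1 lay above every other eye for 0.559% of all tested probes (196 of 35119). Within slide 1, Ftx-/Y eye 1 was 0.36 below the WT male mean of 8.73 (SD 0.67, n = 3), a difference within the spread of the WT eyes. With slide as a fixed block the change in males was the same -0.36 (adjusted p = 0.941, limma) and that in females -0.67, and both rest on that 1 mutant eye, so they say little about genotype. Within slide 2, the 3 Ftx-/- eyes (7.06 ± 0.37) and the 2 Ftx-/Y eyes (6.98) were close together, with a difference of 0.08.

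The dimmer Fgf6 probe did not show this fall. Its log2 intensity was 5.79, 5.35 and 5.83 in WT female eyes 1, 2 and 4, and 3.34, 5.82 and 6.96 (lowest, median and highest) in Ftx-/- eyes. In WT males it was 6.06, 5.44 and 6.89, and in Ftx-/Y males 5.85, 6.06 and 5.74. All 4 groups overlapped, and the probe was well above background on 3 of 3, 15 of 22, 3 of 3 and 3 of 3 arrays in that order. The differences were -0.23 (95% interval -1.38 to 0.92) in females and -0.24 (95% interval -1.69 to 1.2) in males, so a fall as large as that of the brighter probe lay outside the first interval. Over the 11 Ftx-/- eyes the Fgf6 probes had r = 0.39 (permutation p = 0.242, adjusted p = 0.533). The fall of Fgf6 therefore rests on the brighter probe alone.

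**Figure D1:**
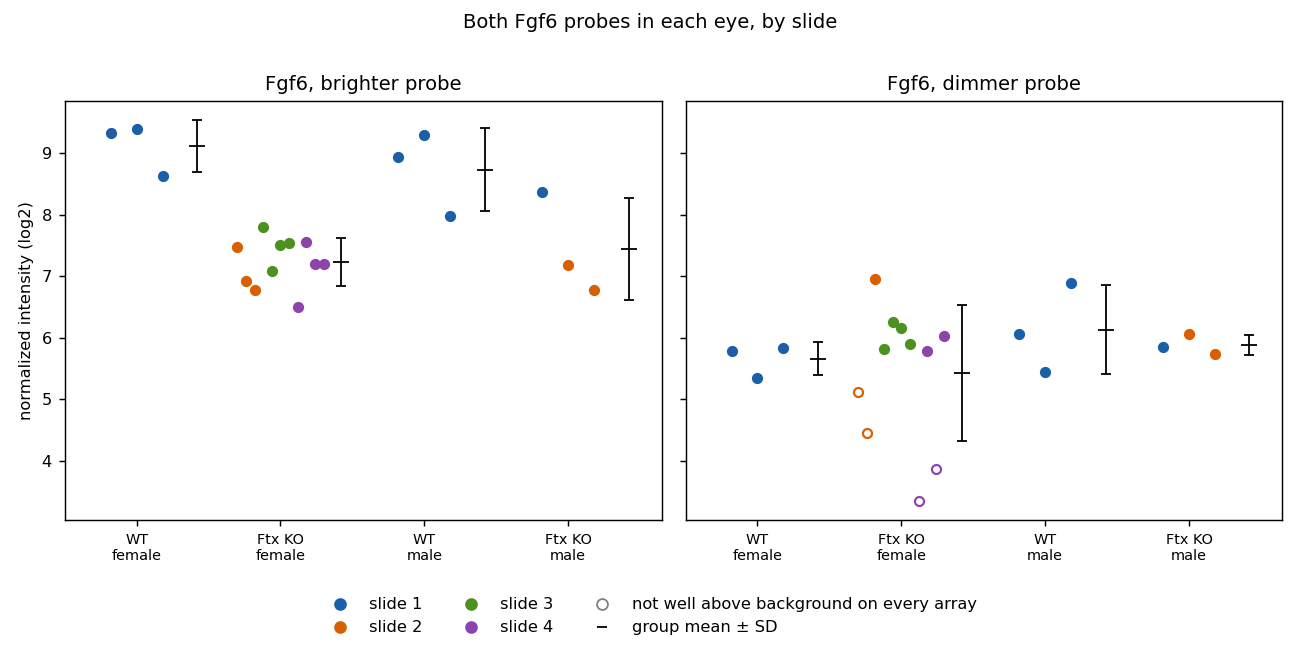
Normalized intensity (log2 scale, vertical axis) of the brighter (left) and dimmer (right) Fgf6 probe in every eye, by group and coloured by slide, with group mean ± SD. By the brighter probe the 7 eyes of slide 1, with Ftx-/Y eye 1 among them, lie above the 13 eyes of the other slides, while by the dimmer probe all groups overlap.

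**Figure D2:**
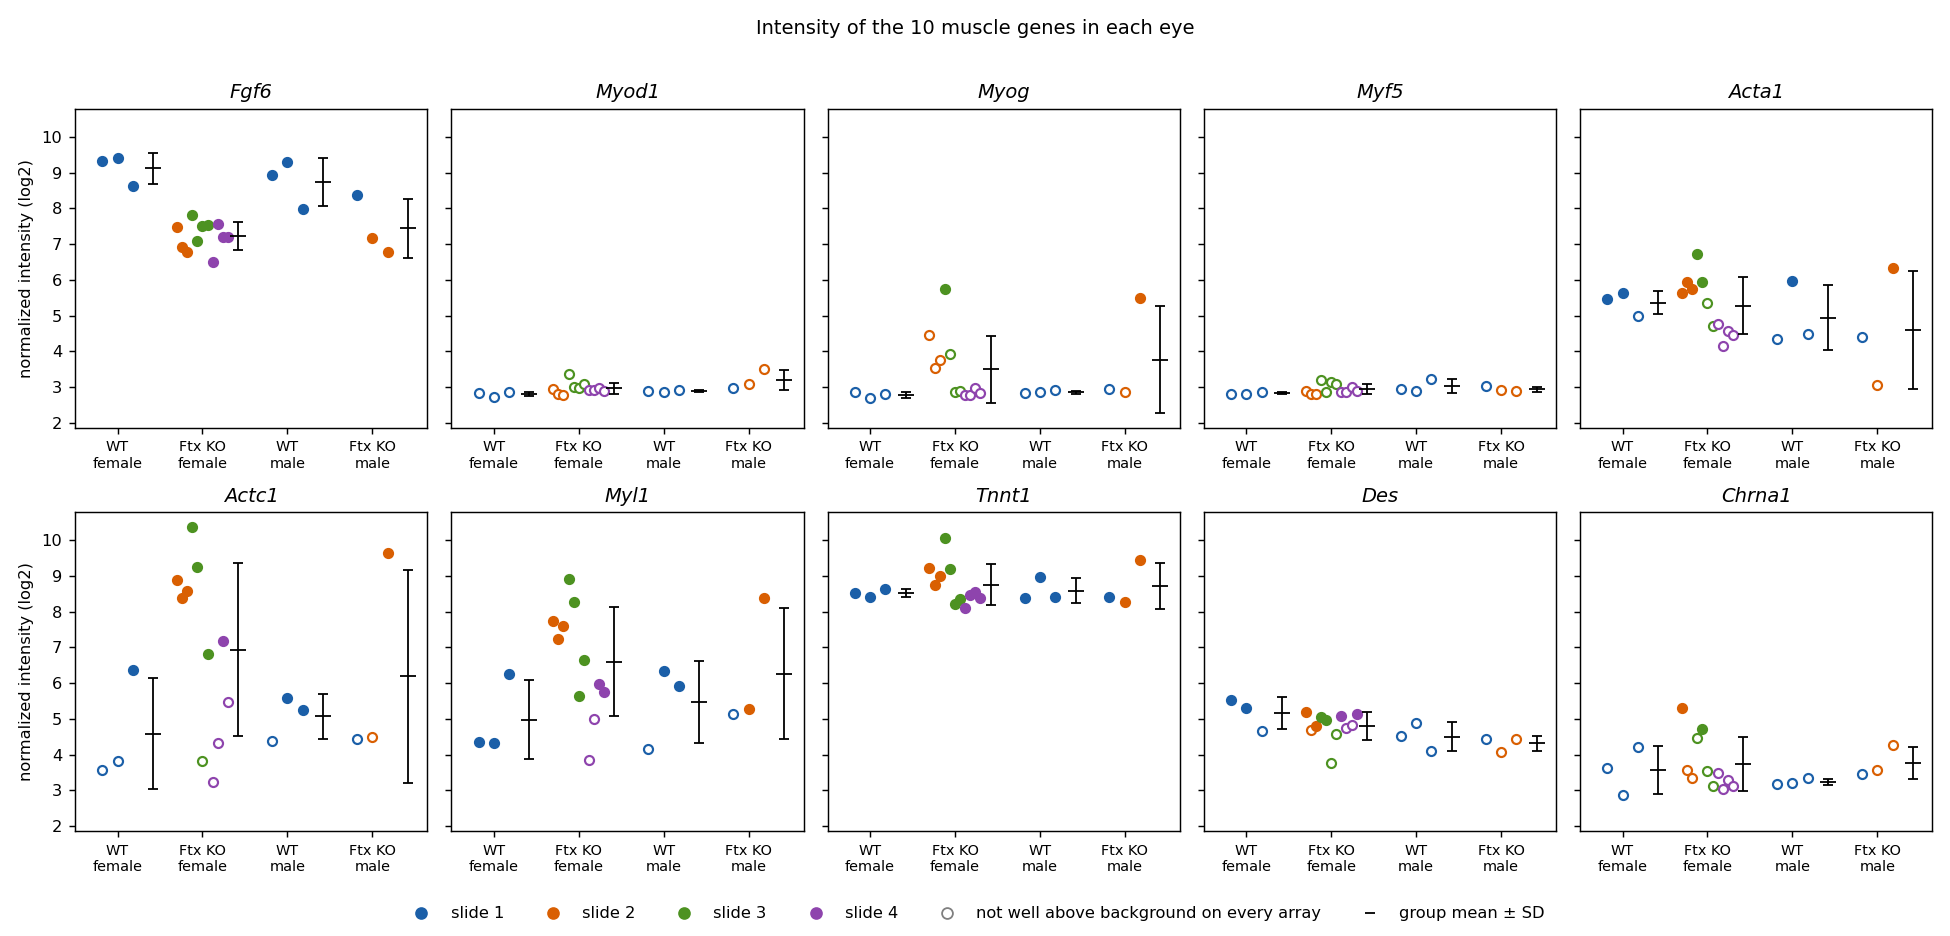
Normalized intensity (log2 scale, vertical axis) of the brightest probe of each of the 10 muscle genes in every eye, by group, with points coloured by slide, open where a probe was not well above background on every array of the eye, and the group mean ± SD beside them. Fgf6 is high in the blue eyes of slide 1, while Actc1 and Myl1 range widely among the Ftx-/- female eyes and are high in Ftx-/Y eye 3.

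The regulators of the MyoD family were at background in nearly every eye. Myod1, which commits cells to muscle, lay between 2.73 and 3.52 on the log2 scale over all 20 eyes, with its highest value in Ftx-/Y eye 3. Myf5, the earliest of the family, lay between 2.80 and 3.24. For both, differences between groups have no measured level on either side, and no fold change is given. Each of these probes was printed on 10 spots of the array, as was that of Myog.

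Myog stood out in 2 eyes. It was 2.86, 2.70 and 2.80 in WT females, 2.83, 2.85 and 2.91 in WT males and 2.95, 2.86 and 5.50 in Ftx-/Y eyes 1 to 3. Among Ftx-/- eyes the lowest, median and highest values were 2.77, 2.97 and 5.75. Eye 4 was the highest, followed by eye 1 at 4.45, eye 5 at 3.94, eye 3 at 3.76 and eye 2 at 3.54, of which only eye 4 was well above background. Ftx-/Y eye 3 was well above background too, on its single array.

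The sarcomere genes Actc1 and Myl1 varied most. Actc1, the cardiac alpha-actin that embryonic skeletal muscle also makes, was 3.56, 3.82 and 6.37 in WT females, and 3.24, 7.19 and 10.37 (lowest, median and highest) in Ftx-/- eyes. The Ftx-/- eyes covered the whole WT range and reached far above it, and 7 of 11 were well above background on both arrays. The difference was 2.36 (SE 1.33), and it is given as a description. Ftx-/- eyes 1 to 5 lay at 8.37 or above and the other 6 at 7.19 or below.

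In males Actc1 was 4.37, 5.57 and 5.26 in WT eyes 1 to 3 and 4.44, 4.49 and 9.63 in Ftx-/Y eyes 1 to 3. Ftx-/Y eye 3 alone was high, and the other Ftx-/Y eyes lay within the WT range. The difference of 1.12 (95% interval -2.36 to 4.59, adjusted p = 0.806, limma) became -0.60 without Ftx-/Y eye 3 and -0.63 within slide 1. The SD of Actc1 between Ftx-/- eyes was 2.41, against a median of 0.28 over all tested probes, and 0.45 between the 2 arrays of an eye.

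Myl1, a fast skeletal myosin light chain, followed the same eyes. It was 4.34, 4.33 and 6.26 in WT females and 3.84, 6.65 and 8.91 (lowest, median and highest) in Ftx-/- eyes, a difference of 1.63 (SE 0.872). In males it was 4.17, 6.33 and 5.93 in WT eyes and 5.15, 5.27 and 8.37 in Ftx-/Y eyes 1 to 3, with a difference of 0.79 (95% interval -1.50 to 3.07, adjusted p = 0.791, limma), which was -0.27 without Ftx-/Y eye 3. Again Ftx-/Y eye 3 was the only high male eye. The other Myl1 probe stayed between 2.89 and 4.70 and was not tested.

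Tnnt1, the slow skeletal troponin T, was well above background in every eye. Its brighter probe was 8.52, 8.42 and 8.62 in WT females and 8.09, 8.55 and 10.05 (lowest, median and highest) in Ftx-/- eyes, with overlapping groups and a difference of 0.23 (SE 0.314). In males it was 8.37, 8.98 and 8.40 in WT eyes and 8.41, 8.27 and 9.45 in Ftx-/Y eyes, a difference of 0.12 (95% interval -0.70 to 0.94, adjusted p = 0.918, limma). Ftx-/- eye 4 and Ftx-/Y eye 3 were the highest of their groups, as they were for Actc1, Myl1 and Myog. The second Tnnt1 probe differed by 0.70 (SE 0.363) in females and 0.53 (SE 0.455, adjusted p = 0.627, limma) in males.

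Acta1, the skeletal alpha-actin of mature fibres, was close to background. It was 5.46, 5.63 and 5 in WT females and 4.16, 5.35 and 6.73 (lowest, median and highest) in Ftx-/- eyes, where 5 of 11 eyes were well above background on both arrays. In males it was 4.34, 5.98 and 4.49 in WT eyes and 4.39, 3.05 and 6.34 in Ftx-/Y eyes, a difference of -0.34 (95% interval -1.80 to 1.11, adjusted p = 0.864, limma). The groups overlapped in both sexes. The female difference was -0.09 (SE 0.557), and it lay between -0.28 and 0.04 with a WT or Ftx-/Y eye left out, so its direction turned.

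Des, the intermediate filament desmin, was 5.52, 5.31 and 4.65 in WT females and 3.76, 4.84 and 5.19 (lowest, median and highest) in Ftx-/- eyes. The difference was -0.36 (SE 0.262), with overlapping groups, and lay between -0.61 and -0.18 with a WT or Ftx-/Y eye left out. In males Des was not well above background on any array, and no fold change is given. Chrna1, the alpha subunit of the muscle acetylcholine receptor, was well above background on both arrays of Ftx-/- eyes 1 and 5, where it was 5.31 and 4.71, and on 1 of the 2 arrays of eye 4, at 4.46. It was well above background on no WT or Ftx-/Y array, and its second probe stayed between 2.61 and 3.70.

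In all, none of the 6 tested genes passed in males (1 of 6, Fgf6, at an unadjusted p under 0.05, limma), where 0.0513% of all probes passed. Among the tested genes other than Fgf6, none passed in the female change minus the male change (none unadjusted, limma), as 0% of all probes did. None of them passed between WT sexes either (none unadjusted, limma), where 0.524% of all probes did. Fgf6 is left out of both comparisons, because values of WT female eyes entered its choice.

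Among the 11 Ftx-/- eyes, Actc1, Myl1, Tnnt1 and Acta1 were high in the same eyes, and no relation of Fgf6 with them was detectable. The 5 eyes highest in Actc1 were also the 5 highest in Myl1, Tnnt1 and Acta1, while 2 of them were among the 5 highest in Fgf6 and 3 among those in Des. Actc1 had r = 0.96 with Myl1 (rho 0.98, permutation p = 1e-05 for both, the smallest that 100000 permutations can give), 0.88 with Tnnt1 (rho 0.95, permutation p = 9e-05 and 4e-05) and 0.76 with Acta1 (rho 0.71, permutation p = 0.00828 and 0.0180). Actc1 was taken as the reference after its values were seen. Over 35118 probes correlated with Actc1, none passed an adjusted p of 0.05 (0.0878 for Myl1, 0.211 for Tnnt1 and 0.380 for Acta1). The p of Myl1 is at the smallest that the permutations can give, so its adjusted value is limited by their number and not passing is no result about it. Without the 2 eyes farthest from the Actc1 median r was 0.97, 0.85 and 0.94, and with slide means taken out 0.97, 0.85 and 0.56 (within-slide permutation p = 0.00026, 0.0263 and 0.305).

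The relation of Fgf6 to the other members was weak and rested on 2 eyes. Its r over the 11 eyes was 0.36 with Tnnt1 (rho 0.15, permutation p = 0.282), 0.34 with Myl1 (rho 0.12, p = 0.306), 0.20 with Actc1 (rho 0.10, p = 0.550), 0.10 with Acta1 (rho -0.16, p = 0.776) and -0.22 with Des (rho -0.17, p = 0.525), all by permutation and with adjusted p between 0.572 and 0.900. Without the 2 eyes farthest from the Fgf6 median, which were eyes 4 and 8, the values were -0.46, -0.52, -0.60, -0.55 and -0.29. With slide means taken out they were 0.34, 0.31, 0.20, -0.13 and 0.00. The median of the 5 correlations was 0.20, and -0.52 without the 2 eyes.

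The genes nearest to Fgf6 over these eyes were not muscle genes of any list used here. They were Zfp367 (r = 0.964), the array's transcript cluster TC1608815 (0.955), Gm10216 (0.939), Stoml2 (0.939) and Orai3 (0.937), and their adjusted p lay between 0.117 and 0.148. Those nearest to Acta1 were Ppapdc1b (r = 0.931), Tmem176b (0.917), Mrps24 (0.908), Lass2 (0.907) and Dcp1b (0.903), with adjusted p between 0.0702 and 0.157. Those nearest to Actc1 were 4930518P08Rik (r = 0.980), Myl4 (0.959), Myl1 (0.957), Tnnc2 (0.948) and Sln (0.942), each with an adjusted p of 0.0878, a value limited by the number of permutations. Myl4, Tnnc2 and Sln encode an embryonic myosin light chain, fast troponin C and the calcium pump regulator sarcolipin.

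**Figure D3:**
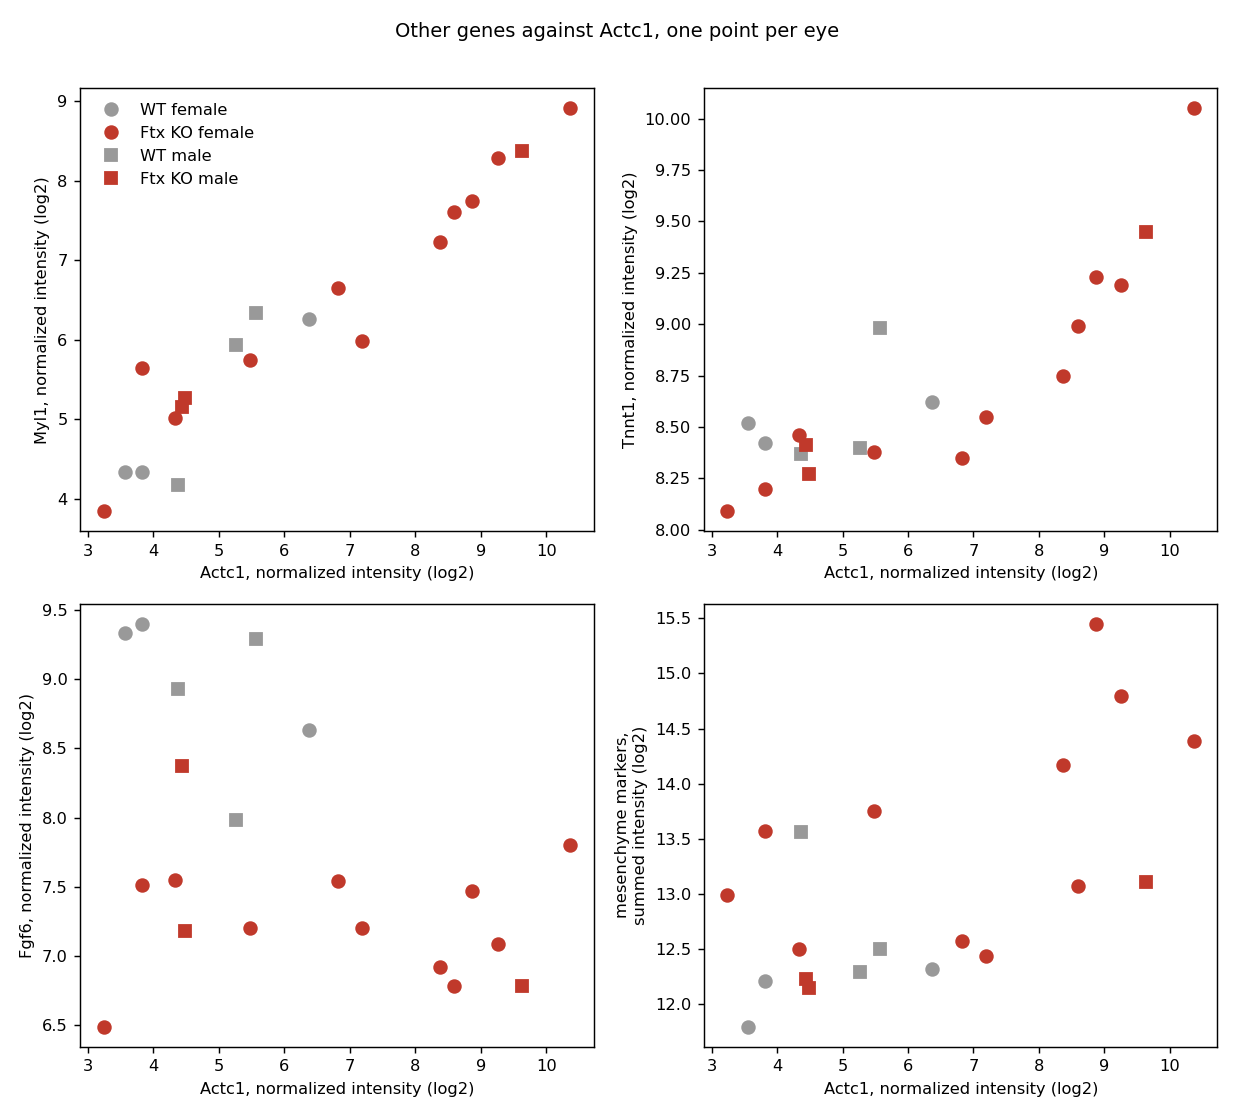
Normalized intensity (log2) of Myl1, Tnnt1 and Fgf6 and summed intensity of 8 periocular mesenchyme markers (log2, lower right) against Actc1, with 1 point per eye in the 4 groups. Among the Ftx-/- female eyes Myl1 and Tnnt1 rise with Actc1, while Fgf6 shows no such slope and is highest in WT eyes.

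Markers of periocular mesenchyme, the connective tissue around the eye, moved with some of these eyes. Their 8 genes summed to 3560 to 5110 intensity units in WT females, 5550 to 44800 in Ftx-/- eyes, 5020 to 12100 in WT males and 4530 to 8850 in Ftx-/Y males, and 7 of the 8 passed as higher in Ftx-/- females, as 13.8% of all probes did, with a median change of 2.01 over the 8, while 0 of 8 passed in males. In Ftx-/- eyes 1 to 5, which were high in Actc1, the sum was 44800, 18400, 8600, 21400 and 28400, and in Ftx-/Y eye 3 it was 8850. It was 13800 in Ftx-/- eye 11 and 12200 in eye 6, where Actc1 was low, and 12100 in WT male eye 1, so mesenchyme and Actc1 were not high in all the same eyes. Of the 8 markers, 1 was well above background on no WT female array. Col1a1, the main collagen of connective tissue, had r = 0.60 with Actc1, 0.76 with Acta1 and 0.30 with Fgf6 over the Ftx-/- eyes (permutation p = 0.0565, 0.00827 and 0.365, adjusted p of 0.369 or more). Smooth muscle and pericyte markers summed to 801 to 1230 in WT females and 865 to 3070 in Ftx-/- eyes, and 1 of their 5 tested genes passed in females. Pigment cell markers summed to 3890 to 6100 and 2200 to 30400, with 1 of 6 passing, and tendon markers to 193 to 238 and 192 to 926, with 1 of 2 tested genes passing. The pigment cell gene that passed, Slc45a2, entered the fit only through the Ftx-/- females, where it was higher, so its passing is a description. Cardiac muscle markers summed to 296 to 470 in WT females and 225 to 506 in Ftx-/- eyes, and 0 of 4 tested genes passed in females or males. In males the sums of pigment cell markers were 6850 to 11100 in WT and 3730 to 6090 in Ftx-/Y eyes, and 0 of 6 passed. Erythroid markers, mostly globin genes of red blood cells, summed to 153000 to 190000 in WT males and 219000 to 460000 in Ftx-/Y males. Their median change was 0.91 over the 5 tested genes, of which 0 passed. How many sums would separate so few eyes was not worked out, so nothing is read from these ranges in males. In females they summed to 179000 to 192000 in WT and 160000 to 311000 in Ftx-/- eyes, and 2 of 5 (Hbb-bh1 and Hbb-y) passed as higher. Of 6 neural retina markers 1 rose and 1 fell in females and 0 passed in males, and 0 of 6 endothelial and 0 of 4 tested cartilage markers passed in either sex. The part of these tissues in the levels of the 10 genes was not tested.

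Beside the 10 genes, 69 other skeletal muscle genes were looked up, of which 52 were tested. In females 18 passed, 6 higher and 12 lower in Ftx-/- eyes, or 34.6% of the 52 beside 27.8% of all probes, with a median change of -0.25 beside -0.04. In males 0 passed (4 at an unadjusted p under 0.05, limma), with a median of -0.04 beside 0.01. Of the 18, 3 (Casq1, Klhl40 and Myom1) were well above background on enough arrays of 1 group only, the group where they were higher. The filter favoured a difference in these 3, so they are set aside, which leaves 15, of which 5 rose and 10 fell. With slide as a fixed block 0 passed in females, when 0.145% of all probes did, but that fit separates slide from genotype through Ftx-/Y eye 1 alone. Without WT female eye 1 there were 7.

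By subgroup the counts in females were small, and differences between subgroups were not tested; of all probes 13.8% rose and 14% fell. Of 5 tested Z-disc and cytoskeleton genes 4 fell (Klhl40 among them) and none rose, of 7 specification genes 3 rose and 1 fell, and of 8 thin filament genes none passed. Of 12 tested genes of excitation-contraction coupling and metabolism 3 fell (Casq1 among them) and 1 rose, of 7 genes of the myoblast surface and fusion 2 fell and 1 rose, of 9 thick filament and titin genes 1 fell and 1 (Myom1) rose, and of 4 genes of the neuromuscular junction 1 fell. The Z-disc group includes Cryab, which is also a lens crystallin, and it fell by 0.87 on the log2 scale (adjusted p = 0.000134, limma). Lens markers summed to 1140000 to 1200000 intensity units in WT females and 922000 to 1160000 in Ftx-/- eyes, and 4 of 6 fell.

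The 3 largest falls were Ldb3, Chrng and Casq1. Ldb3, a Z-disc protein, was 7.58, 7.75 and 7.52 in WT females and 4.98, 5.98 and 6.56 (lowest, median and highest) in Ftx-/- eyes, and fell by 1.87 on the log2 scale (SE 0.374, adjusted p = 0.00153, limma). Like Fgf6, it was higher in every eye of slide 1 (6.73 to 7.75) than in any other eye (4.98 to 6.56), and Ftx-/Y eye 1 was at 7.29. A second Ldb3 probe, well above background on 2 of 31 arrays and not tested, was 3.29 to 3.57 in WT females and 3.10 to 4.62 in Ftx-/- eyes. Chrng, the embryonic subunit of the muscle acetylcholine receptor, was 8.58, 8.61 and 8.84 in WT females and 7.28, 7.62 and 7.92 in Ftx-/- eyes (lowest, median and highest), a fall of 1.09 (SE 0.141, adjusted p = 7.88e-05, limma).

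WT males had 7.89, 7.99 and 7.32 of Chrng and Ftx-/Y males 7.88, 7.98 and 7.82, so the WT female eyes were the high ones, on a slide that they shared with the WT males. Chrng was 0.94 higher in WT females than in WT males (adjusted p = 0.0111, limma). Casq1, calsequestrin of fast fibres, was near background, at 5.03, 4.66 and 4.1 in WT females and 3.21, 3.54 and 4.04 in Ftx-/- eyes (lowest, median and highest). It entered the fit only because 2 of 3 WT female arrays were well above background (3 of 22 Ftx-/- arrays were), so its change of -1.04 (SE 0.248) is a description.

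Among the largest rises, Tmem8c (myomaker, needed for myoblast fusion) was 3.82, 4.18 and 4.82 in WT females and 4.90, 5.34 and 5.89 in Ftx-/- eyes (lowest, median and highest), and rose by 1.11 (SE 0.284, adjusted p = 0.00757, limma) with no overlap. Without WT female eye 1 it no longer passed (adjusted p = 0.0812, limma). With arrays scaled to their 75th percentile the rise of Tmem8c was 0.31 and did not pass (adjusted p = 0.436, limma). In Ftx-/Y males Tmem8c was at least 1.34-fold higher than in WT males, where it was not well above background, with an adjusted p of 0.260 (limma). Myh3, by the probe that was not well above background in WT females, was at least 6.89-fold higher in Ftx-/- eyes. That probe entered the fit through mutant groups only, where it was higher, so this is a description. By its brighter probe, which counts in the list, the change was 1.64 (adjusted p = 0.109, limma). Myh3 was looked at after its values were seen. No gene of the list passed in males, so none is named there by the size of its change.

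**Figure D4:**
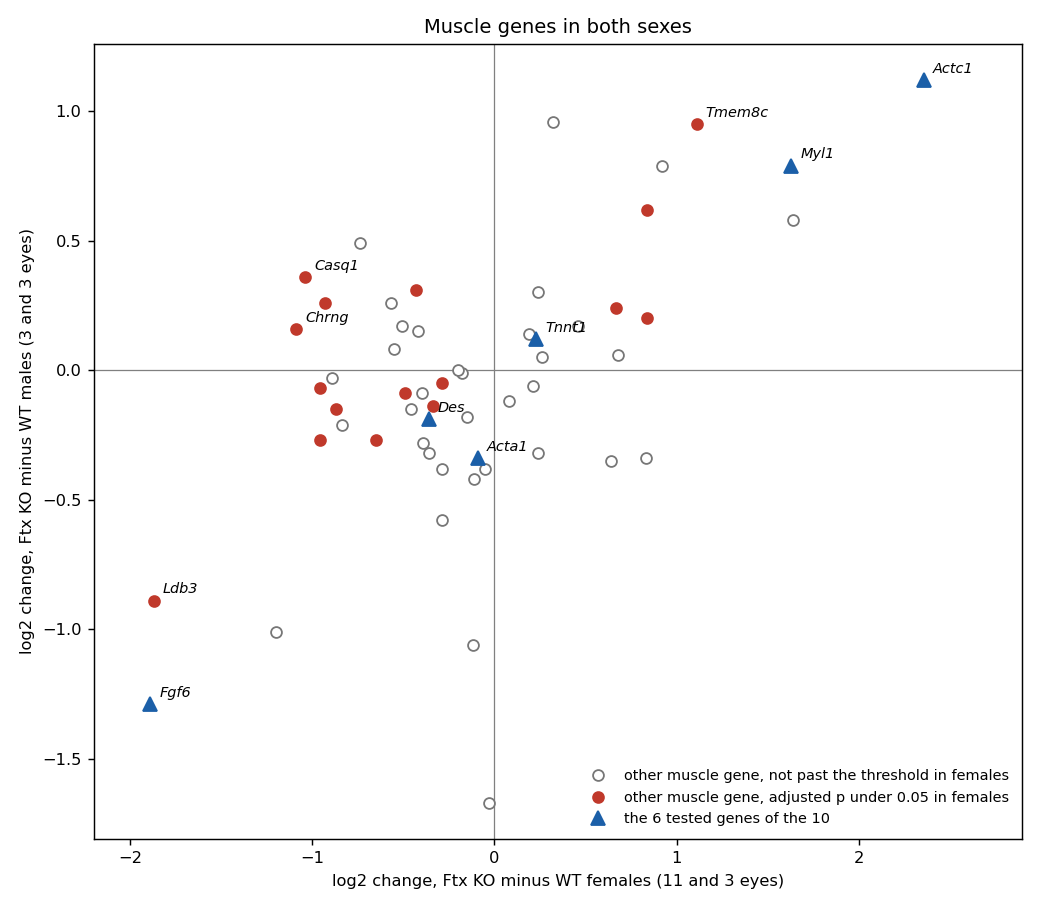
Change in females (Ftx-/- minus WT, log2, horizontal axis) against change in males (Ftx-/Y minus WT, log2, vertical axis) for other muscle genes tested (circles, filled where they passed in females) and the 6 tested genes of the 10 (triangles). Fgf6 and Ldb3 lie low in both sexes, and Actc1 and Myl1 lie high without passing. Des and Casq1 were not well above background in males, so their vertical positions carry no fold change.

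The promoters of Fgf6, Myog, Acta1 and Actc1 are shown because Acta1 and Actc1 had their 5 highest Ftx-/- eyes in common while Fgf6 did not share them, and Myog as the 1 regulator of the MyoD family that was well above background in any eye. Each is the 250 bases before the start of the gene, 5′ to 3′ on the gene's strand (RefSeq, GRCm38.p6), found for 9 of the 10 genes. The capitals mark the E-box CANNTG, which MyoD family factors bind, and the CArG box, which serum response factor binds. CANNTG reads the same on both strands as a pattern and CAGCTG is a case of it, and both motifs were searched with overlaps allowed. CANNTG was in 7 of 9 members' promoters and in 66.2% of all 32851 promoters, CAGCTG in 4 of 9 and 13.0%, and the CArG box in 2 of 9 (Acta1 and Actc1) and 1.47%. Myl1 and Tnnt1, not shown, had the same 5 highest Ftx-/- eyes as Actc1 and no CArG box in their 250 bases. The part of these motifs in the levels was not tested.
Fgf6, chr6:127015292-127015541, plus strand: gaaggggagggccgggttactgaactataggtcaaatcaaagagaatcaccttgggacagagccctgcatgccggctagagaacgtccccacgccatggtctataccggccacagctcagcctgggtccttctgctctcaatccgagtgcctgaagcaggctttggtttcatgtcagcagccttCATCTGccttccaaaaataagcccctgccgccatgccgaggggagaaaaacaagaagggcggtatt
Myog, chr1:134289754-134290003, plus strand: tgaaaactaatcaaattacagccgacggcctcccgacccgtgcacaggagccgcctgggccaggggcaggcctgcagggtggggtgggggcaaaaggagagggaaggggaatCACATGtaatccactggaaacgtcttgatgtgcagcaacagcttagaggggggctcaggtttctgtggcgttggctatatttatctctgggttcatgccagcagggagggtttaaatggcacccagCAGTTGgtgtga
Acta1, chr8:123894776-123895025, minus strand: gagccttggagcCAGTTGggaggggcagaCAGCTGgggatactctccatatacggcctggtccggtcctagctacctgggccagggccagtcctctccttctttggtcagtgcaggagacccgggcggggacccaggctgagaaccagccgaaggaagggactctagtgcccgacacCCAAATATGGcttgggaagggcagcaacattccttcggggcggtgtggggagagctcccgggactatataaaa
Actc1, chr2:114052876-114053125, minus strand: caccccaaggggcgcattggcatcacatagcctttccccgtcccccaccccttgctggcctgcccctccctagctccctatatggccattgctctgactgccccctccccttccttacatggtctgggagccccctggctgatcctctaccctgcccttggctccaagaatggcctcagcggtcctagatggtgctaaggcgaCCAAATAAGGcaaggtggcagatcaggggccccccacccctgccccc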

How the data were processed

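The authors hybridised labelled RNA from E13.5 eyes to 1-colour Agilent whole-mouse-genome arrays (mm9 design) and deposited, for each of 62976 spots on 31 arrays, the background-subtracted intensity of Feature Extraction 11.0.1.1 (per the file headers). Control spots (3671) were dropped, along with 120 spots that the scanner software marked as uneven and 5639 that it marked as population outliers. The deposited series table holds the same intensities within 0.6%, not normalized between arrays, and entered as an alternative. The quantile-spline normalization that the study names was re-implemented (R 4.3.3) with 5 iterations over 100 quantiles and a minimum offset of 5. Log2 values of a probe's spots, then of an eye's arrays, were averaged. The number of eyes limits the precision.

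Groups were compared with limma 3.58.1 (trend on the mean) over all 20 eyes, with Benjamini-Hochberg adjustment over 35119 probes and a call at 0.05. A gene was taken by its probe with the highest mean over the 4 groups. Named were all 10 genes, the 3 largest rises and falls among the other muscle genes that passed, and the 5 genes nearest to Fgf6 and to Acta1. Some genes that these rules named are not reported here. Correlations over 11 eyes were tested with 100000 two-sided permutations (numpy 2.4.6). The members, the lists and the rules were chosen with earlier results of these data known. On simulated data the fit found 94 of 100 probes changed by 2 and 64 of 100 changed by 1 (log2) in the female design, 83 and 51 of 100 in the male design, each with 7 false calls among 35119 probes. The simulated eyes had independent noise and no slide effect, so these counts do not cover calls that come from the slide.

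Tried as alternatives were normexp background correction (offset 50), scaling by quantiles or the 75th percentile, no filter, the study's minimum of 500 in WT females, each array of an eye alone, each eye left out, the groups compared alone, slide or replicate number as a block, and the methods' unequal variance test with fold changes above 1.2 or below 0.8. Leaving out Ftx-/- eyes and taking Actc1 as a reference were added after the data were seen. Same-numbered eyes deviated together (r over 0.1) in 6 of 16 pairs. Eyes with different numbers were not set beside them, so whether the numbers pair the eyes is not settled.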

Additional observations from a re-analysis of the deposited data

Results flagged for a closer look

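Chrng, which encodes the embryonic acetylcholine receptor subunit, was singled out because every Ftx-/- eye moved below the WT female mean while every Ftx-/Y eye moved above the WT male mean. The change in females minus the change in males was -1.25 on the log2 scale. That difference did not pass after adjustment over all probes (adjusted p = 0.194, limma), and 0 of 35119 probes did (4049 at an unadjusted p under 0.05). All 6 WT eyes were on slide 1, so the part of the slide in each sex's change was not tested.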

How the results depend on the processing

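In females, the count of the 10 muscle genes past the threshold rests on Fgf6, which was selected on this difference, so its size and its steadiness are no evidence. The count (1) became 0 with slide as a fixed block and 0 by the methods' unequal variance test after Benjamini-Hochberg adjustment, and 3 (Actc1, Fgf6 and Myl1) both with that test at the study's own thresholds and with a replicate block. It was 1 with each eye left out. The count of other muscle genes (18) was 8 in the deposited series table, 4 of 8 tested with the study's minimum of 500, 0 with slide as a fixed block, 10 with slide as a random block, 11 with a replicate block, 6 by the methods' test after adjustment, 7 to 21 with 1 WT or Ftx-/Y eye left out (7 without WT female eye 1) and 16 to 21 with 1 Ftx-/- eye left out. Eyes with the same replicate number deviated together (r over 0.1) in 6 of 16 pairs (r of -0.362 to 0.348). What a shared number stands for is not given, so the replicate block takes out a shared number only. The fixed slide block rests on Ftx-/Y eye 1, the 1 mutant eye on slide 1.

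In males, 1 of the 10 genes (Fgf6) and 4 others passed at the study's thresholds on limma's unadjusted p, and 0 to 1 of the 10 with an eye left out (1 without WT male eye 3). Changes that did not pass turned their direction for Tnnt1 (-0.03 in the series table, -0.25 without Ftx-/Y eye 3, -0.18 and -0.01 with slide as a fixed and as a random block), Actc1 (-0.60 and -0.63 without that eye and with the fixed block), Myl1 (-0.27 and -0.33 likewise) and Acta1 (0.18 without WT male eye 2, 0.43 without Ftx-/Y eye 2). With an eye left out these changes ranged from -0.25 to 0.34 for Tnnt1, -0.60 to 1.99 for Actc1, -0.27 to 1.34 for Myl1 and -1.22 to 0.43 for Acta1. The median correlation of Fgf6 with 5 of the genes (0.20) was 0.48 in the series table and -0.52 without the 2 farthest eyes, and it had no value with the minimum of 500, which kept none of the genes. The cause of these changes was not tested. The remaining counts and correlations stayed close (201 of 217 values). Dim probes limit Acta1, Actc1, Des and Myog, which were not well above background in many eyes. The methods' test was not run for the difference between the sexes.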
